A study of Mus musculus with 43 samples.

Results

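The genes described here are 9 members of the endothelial response to shear stress, the drag of flowing blood on the vessel wall: Klf2, Klf4, Klf6, Nos3, Piezo1, Edn1, Ece1, S1pr1 and Map3k3. They were taken by gene symbol from a table of 54532 genes, and all 9 were found once and passed the filter on low counts. RNA of brain endothelial cells (EC) of mice aged 2 months was sequenced in 43 libraries. No treatment or engineered allele is given for any group. Cells of all groups were sorted by flow cytometry as negative for CD45 and CD11b, which mark leukocytes, and positive for CD31, the product of Pecam1. The long-inbred strains were 129S1/SvImJ (9 libraries), A/J (5), C57BL/6J (6), DBA/2J (5) and NOD/ShiLtJ (6), and the wild-derived strains were CAST/EiJ (6) and WSB/EiJ (6). There were 16 female and 27 male libraries, 21 of cortex and 22 of hippocampus. Each title further bears 1 of the words high and low, whose meaning the sources used here do not give. Of the male libraries 14 were titled high and 13 low, whereas 15 of the 16 female libraries were titled high, so that title words were compared in male mice. Titles do not name the mouse, and each library was treated as 1 sample.

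EC sense blood flow with channels and junctional receptors. In the pathway known from other work, MEKK3, the kinase encoded by Map3k3, activates MEK5 and ERK5, which act through MEF2 factors to induce the transcription factors KLF2 and KLF4. These in turn raise genes of a quiescent endothelium such as Nos3, the nitric oxide synthase of EC, and lower others such as Edn1, which encodes the vasoconstrictor endothelin-1. In the brain, MEKK3 is held in check by the CCM complex, whose loss causes cerebral cavernous malformations.

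The start region of 7 of the 9 members was found in RefSeq's table of promoters (GRCm38.p6), each reaching from 250 bases before the transcript start to 50 after it. Windows were searched on both strands for the KLF box CCACCC, the MEF2 site, the shear stress response element GAGACC and the AP-1 site TGANTCA. The 250 bases before the start are shown for Klf2, Klf4 and Edn1, since these members differed between groups in the comparisons given further on. Each sequence reads 5′ to 3′ in the direction of its gene, with matches to the motifs in capitals.
Klf2, chr8:72318812-72319061, plus strand: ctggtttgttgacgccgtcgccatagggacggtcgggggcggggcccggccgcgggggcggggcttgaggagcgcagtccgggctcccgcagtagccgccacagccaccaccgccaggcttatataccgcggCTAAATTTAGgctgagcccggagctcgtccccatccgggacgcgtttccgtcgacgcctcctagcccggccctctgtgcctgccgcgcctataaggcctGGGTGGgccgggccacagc
Klf4, chr4:55532476-55532725, minus strand: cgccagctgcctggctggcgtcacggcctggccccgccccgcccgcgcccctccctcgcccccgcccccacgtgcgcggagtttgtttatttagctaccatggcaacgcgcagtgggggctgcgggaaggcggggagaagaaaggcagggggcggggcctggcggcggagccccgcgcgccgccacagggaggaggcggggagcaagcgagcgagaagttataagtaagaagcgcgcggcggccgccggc
Edn1, chr13:42301226-42301475, plus strand: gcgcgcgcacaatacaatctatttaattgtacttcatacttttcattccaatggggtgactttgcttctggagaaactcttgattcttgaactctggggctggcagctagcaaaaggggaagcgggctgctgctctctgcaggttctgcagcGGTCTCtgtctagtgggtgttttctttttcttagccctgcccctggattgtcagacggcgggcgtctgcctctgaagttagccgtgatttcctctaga
Klf2 holds a MEF2 site whose first base lies 118 bases before the start and a KLF box, on the reverse strand, at 19 bases. Edn1 holds the shear stress response element, on the reverse strand, at 98 bases, and Piezo1 holds one at 167 bases, also on the reverse strand. Of 4 start regions of Ece1, 1 holds KLF boxes, at 128 and 123 bases. Nos3 and S1pr1 had no entry. None of the 4 motifs was found in the windows of Klf4, Klf6 and Map3k3. Of 32851 RefSeq promoters of this length, 3.69% hold the MEF2 site, 31.5% the KLF box, 16.4% the shear stress response element and 7.81% the AP-1 site. These matches describe letters in the window, and no factor binding was measured.

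In the mm10 build with GENCODE M21, the members are protein-coding genes on the strands given: Klf2 at chr8:72319033-72321656 (plus), Klf4 at chr4:55527143-55532466 (minus), Klf6 at chr13:5861482-5870394 (plus), Nos3 at chr5:24364810-24384474 (plus), Piezo1 at chr8:122481698-122551329 (minus), Edn1 at chr13:42301476-42307990 (plus), Ece1 at chr4:137862237-137965229 (plus), S1pr1 at chr3:115710433-115715072 (minus) and Map3k3 at chr11:106084613-106155446 (plus). Counts cover their exons.

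All 9 genes were well expressed in sorted EC. Divided by exon length, the mean level was highest for Klf2 at 181 ± 103 CPM per kilobase (SD, n = 43), where CPM are counts scaled to a common library size, above 99.7% of genes tested. Ece1, which encodes the protease that cleaves big endothelin to its active form, reached 129.9 ± 29.4 CPM per kilobase (SD, n = 43), and S1pr1, the receptor of EC for sphingosine 1-phosphate, 117 ± 49.9 (SD, n = 43). Nos3 was at 86.4 ± 29.6, Klf4 at 79.7 ± 33.7 and Edn1 at 41.0 ± 19.3 CPM per kilobase (SD, n = 43). The lowest were Klf6, a Krüppel-like factor known from vascular injury, at 31.5 ± 12.5, Map3k3 at 30.4 ± 11.7 and Piezo1, a stretch-gated cation channel, at 18.5 ± 5.46 CPM per kilobase (SD, n = 43). Klf2 was also the most variable member, with a coefficient of variation of 57% and a 14.9-fold range of CPM between libraries. Ece1 varied least, with 22.6% and a 2.73-fold range. The smallest count of any member in any library was 68, for Edn1.

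Library totals ran from 1626534 to 49372356 counts and were larger in female (median 21242058) than in male mice (median 5257353). The share of counts on 3 rRNA-like genes was 1.59% to 12.1% in female and 13% to 29.3% in male mice, with no overlap. The summed level of 16 endothelial markers was 10624 to 21212 CPM in female and 13268 to 20660 CPM in male libraries, whereas that of 10 microglial markers was 0.6 to 152 CPM in female libraries, with 2 of the 10 at a median of 0, and 5.7 to 61.5 CPM in male libraries, with 7 of the 10 at a median of 0. The sum of 10 pericyte markers was 2133 to 9063 CPM in female and 2323 to 9751 CPM in male libraries. That of 10 astrocyte markers was 1099 to 4750 CPM in female and 1480 to 19671 CPM in male libraries. The authors state that the sorted cells were enriched for EC but were not pure. One female cortex library of WSB/EiJ (replicate 2, 2731954 counts) stood apart in Klf2, Ece1, S1pr1 and Map3k3, and the F test among strains and the fits between regions, sexes and strain origins were repeated without it, as were their interactions. In such bulk samples, fewer cells of a type and less RNA per cell cannot be told apart. Nos3, Piezo1, Ece1, Map3k3 and Edn1 overlap other genes on the opposite strand, and how strand was treated in counting is not given in the sources used here.

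**Figure D1:**
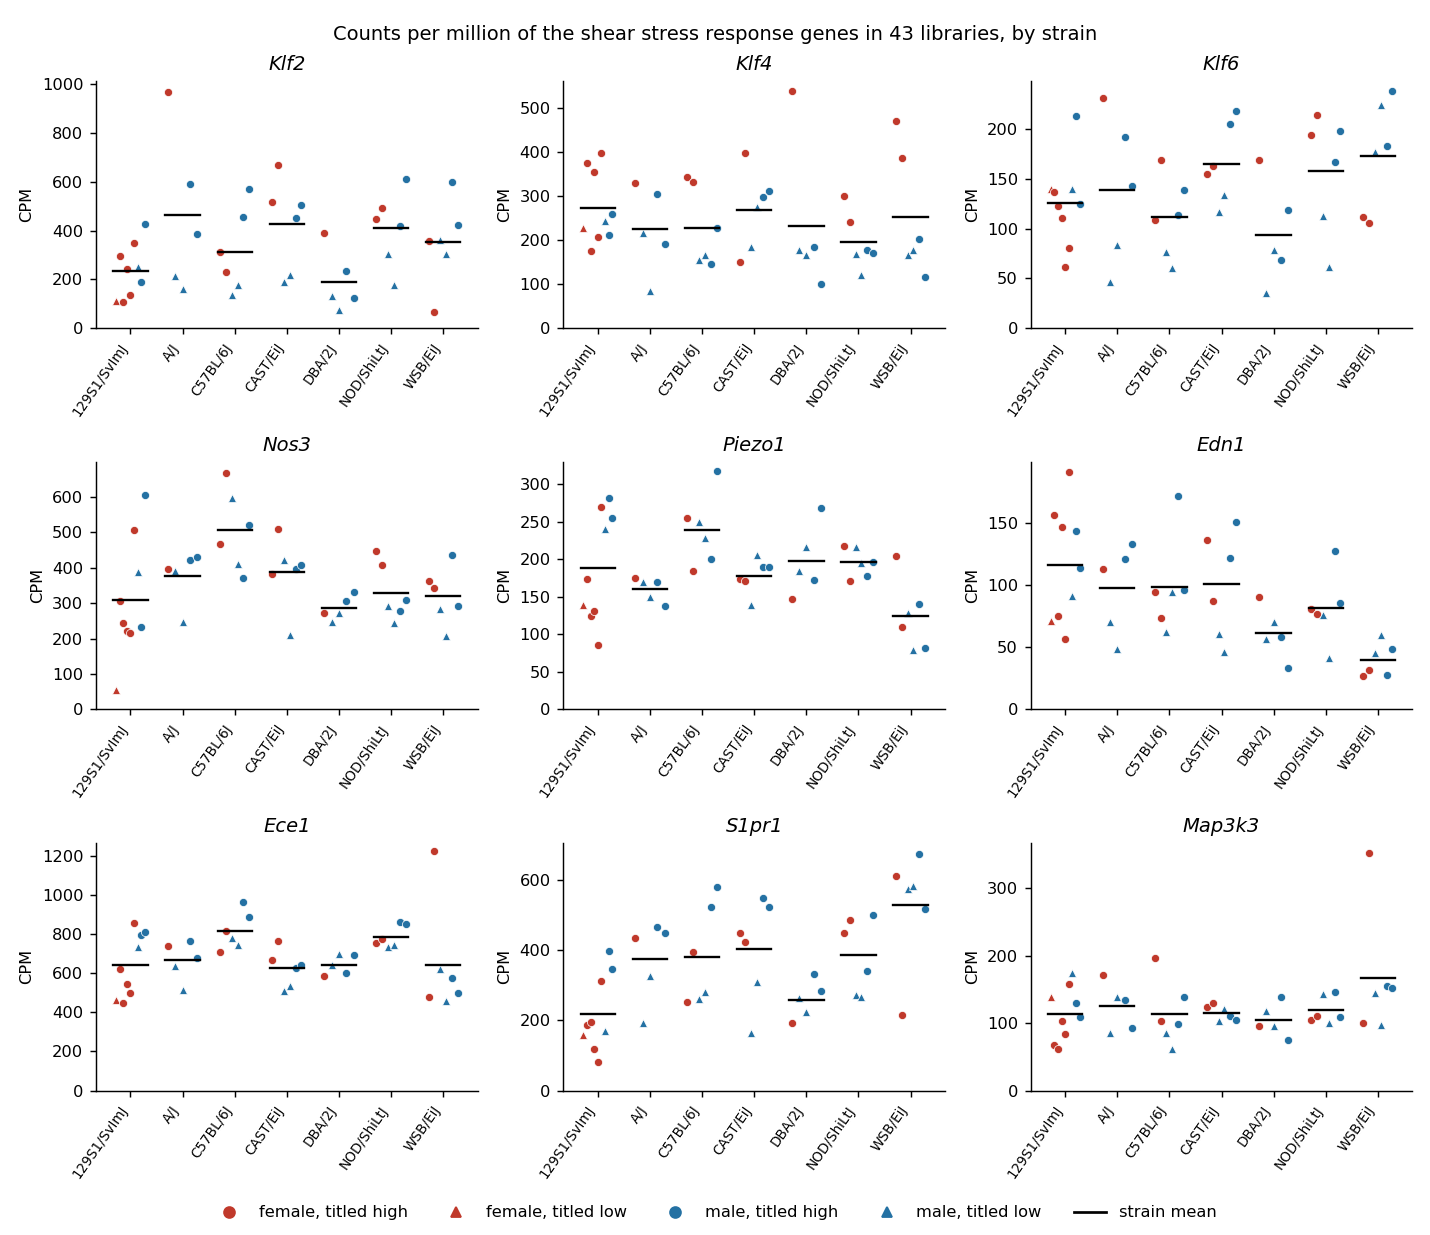
CPM of each member (vertical axis) in every library, by strain (horizontal axis), with sex as colour, title word as marker shape and the strain mean as a black line. Edn1 in WSB/EiJ lies between 26.8 and 60.3 CPM, and within most strains the male libraries titled high lie above those titled low for Klf2.

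Among male libraries, Klf2 and S1pr1 were higher in those titled high than in those titled low. In libraries titled low, Klf2 had a lowest value of 76.4, a median of 191 and a highest of 361 CPM. In libraries titled high these values were 124, 439 and 611 CPM. Of the 14 libraries titled high, 11 lay above every library titled low. Mean Klf2 was 427 ± 153 CPM (SD, n = 14) against 209 ± 79.7 CPM (SD, n = 13), giving a log2 fold change of 1.04 with a standard error (SE) of 0.19, or 2.06-fold, with an adjusted p of 7.5e-04 in edgeR's quasi-likelihood test.

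S1pr1 ran from 164 through a median of 267 to 582 CPM in male libraries titled low, and from 283 through 481 to 674 CPM in those titled high. The groups overlapped, with 9 of the 13 libraries titled low below every library titled high. The means of 462 ± 110 CPM (SD, n = 14) and 299 ± 133 CPM (SD, n = 13) gave a log2 fold change of 0.64 (SE 0.16, adjusted p = 0.0215, edgeR). Of the 9 members 2 thus passed, against 1.06% of all 27529 genes tested in male libraries and 7.03% of the genes with a mean of at least 50 CPM, a level that all 9 members exceed. All 9 fitted values were above 0, with a median of 0.25, against 0.04 over all genes. So were 14 of 16 endothelial, 10 of 10 arterial and 9 of 9 venous markers, but 0 of 10 astrocyte markers, as given further on.

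The male libraries gave 13 matched sets of 1 library titled high and 1 titled low from the same strain and region. Klf2 was higher in the library titled high in 13 of 13, by 1.09 ± 0.49 on the log2 scale (SD, n = 13). The smallest difference, 0.46, was that of WSB/EiJ hippocampus (306 against 422 CPM), and the largest, 2.05, that of C57BL/6J hippocampus (136.8 against 571 CPM). A two-sided exact permutation test of signs gave p = 2.4e-04, the smallest value that 13 sets allow. S1pr1 was higher in 12 of 13, by 0.71 ± 0.52 (SD, n = 13; exact permutation p = 4.9e-04), with WSB/EiJ hippocampus as the exception (582 titled low, 516 CPM titled high). Klf6 was also higher in 12 of 13, by 0.75 ± 0.60 (SD, n = 13; exact permutation p = 0.00122), and there 129S1/SvImJ hippocampus was the exception. For the other members, Ece1 was higher in 10 of 13 (mean 0.17, exact permutation p = 0.00415), Nos3 in 9 (0.31, p = 0.0127) and Edn1 in 10 (0.49, p = 0.0542). These p-values are given without adjustment. Adjusted over all 27 exact tests on matched sets, p was 0.00659 for Klf2 and S1pr1, 0.011 for Klf6 and 0.028 for Ece1. For Nos3 it was 0.0571 and for Edn1 0.146. These sets use the same libraries as the fit across genes. The exact test treats sets as independent, although the cortex and hippocampus sets of a strain may come from the same mice.

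**Figure D2:**
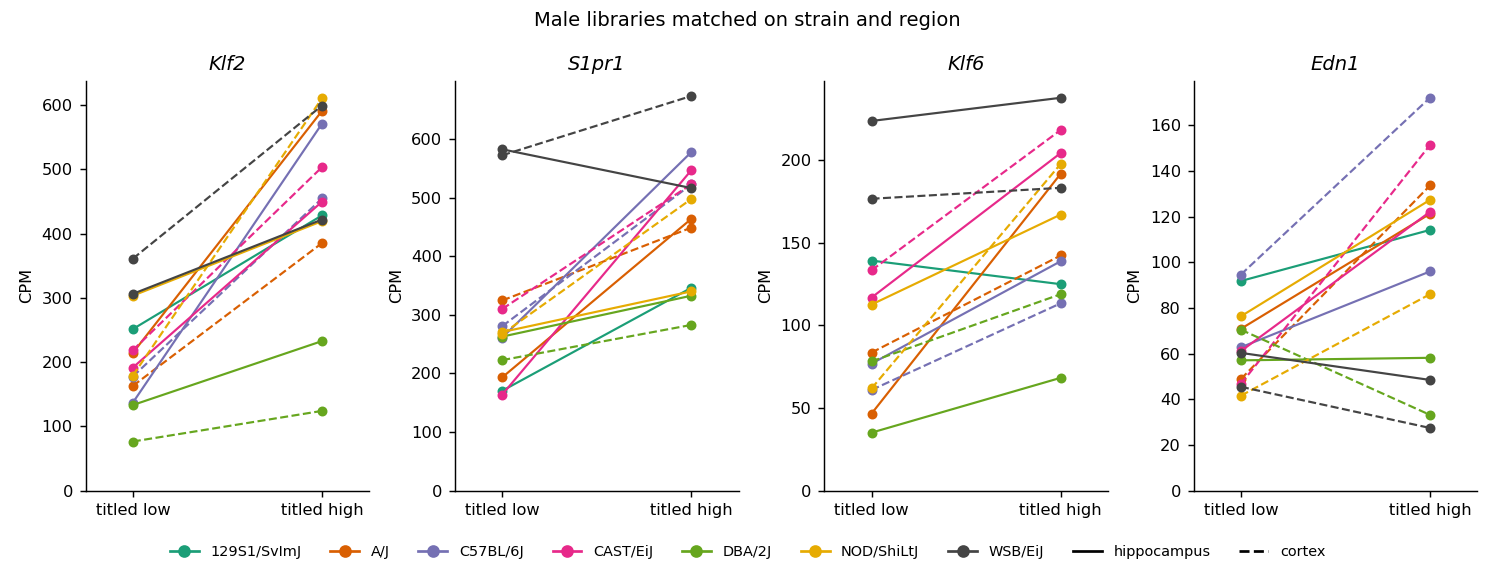
CPM (vertical axis) of Klf2, S1pr1, Klf6 and Edn1 in male libraries titled low and high, with a line for each of the 13 sets matched on strain (colour) and region (solid, hippocampus; dashed, cortex). Klf2 is higher in the library titled high in all 13 sets, S1pr1 and Klf6 in 12 and Edn1 in 10.

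The members that did not pass between title words ranged widely. Edn1 had 61.1 CPM as its median in libraries titled low (41.6 to 94.6) and 118 CPM in those titled high (27.4 to 172), and 9 of the 14 libraries titled high lay above all titled low while 2 lay below all of them. Its log2 fold change was 0.70 (SE 0.22, adjusted p = 0.122, edgeR). Klf6 had a median of 83.6 CPM in libraries titled low and 175 CPM in those titled high, a log2 fold change of 0.69 (SE 0.20, adjusted p = 0.0905, edgeR). DESeq2 called 4 members, adding Edn1 and Klf6 with an adjusted p of 0.0333 each. Nos3 (0.25 ± 0.15, log2 fold change ± standard error), Klf4 (0.24 ± 0.16), Ece1 (0.20 ± 0.11), Piezo1 (0.12 ± 0.17) and Map3k3 (0.11 ± 0.16) stayed well short of the threshold.

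Other genes around the pathway were taken from lists. For these and the lists that follow, 1.06% of all genes and 7.03% of those with a mean of at least 50 CPM passed between title words. Of 18 genes induced by laminar flow or by KLF2 and KLF4, 1 passed between title words: Thbd, which encodes the anticoagulant receptor thrombomodulin, at 244 ± 62.8 CPM (SD, n = 14) titled high and 147 ± 40.4 CPM (SD, n = 13) titled low, a log2 fold change of 0.74 (SE 0.16, adjusted p = 0.00569, edgeR). The median of this list was 0.31, with 15 of 18 above 0. Of 21 mechanosensors and junctional sensors only Cav1, the coat protein of caveolae, passed (log2 fold change 0.67, adjusted p = 0.0181, edgeR). Of 13 other KLF genes tested only Klf10 did (0.93, adjusted p = 0.0462, edgeR). None of the 11 genes of the MEKK3 to MEF2 cascade and CCM complex passed, nor of the 12 flow-repressed, 15 nitric oxide, 6 endothelin or 10 sphingosine 1-phosphate genes tested, and the list medians were 0.15, 0.32, 0.01, -0.13 and 0.48.

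Immediate early genes, transcription factors and regulators that respond quickly to many stimuli, moved with the title word as well. Of 20 such genes 19 had fitted values above 0, with a median of 0.72, and Jun (0.79, adjusted p = 0.00843) and Fos (2.19, adjusted p = 0.0253) passed in edgeR. Their summed level was 724 to 2329 CPM in libraries titled high and 651 to 1458 CPM in those titled low. When their mean log2(CPM + 1) was added to the fit, which was decided with the results in view, Klf2 had a log2 fold change of 0.55 (adjusted p = 0.29, edgeR) and S1pr1 one of 0.42 (adjusted p = 0.491, edgeR), and 0 members passed. This was the single alternative of 42 in which Klf2 was not called. S1pr1 also lost its call with A/J (adjusted p = 0.139), C57BL/6J (0.204), CAST/EiJ (0.148) or NOD/ShiLtJ (0.0698) left out, in edgeR's test.

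Markers of several cell types differed between the same libraries. Of 16 endothelial markers 14 were above 0 in libraries titled high, 4 passed as higher, led by Cldn5 (log2 fold change 0.96, adjusted p = 7.8e-05, edgeR), and 1, Erg, as lower (-0.60, adjusted p = 0.00931, edgeR). Their summed level was 13502 to 20660 CPM titled high and 13268 to 16556 CPM titled low. When the endothelial mean was added in the same way, Klf2 stayed called at 1.05 (adjusted p = 0.00805, edgeR) and S1pr1 at 0.82 (adjusted p = 0.0171, edgeR). Lower in libraries titled high were the pericyte marker Rgs5 (-0.82, adjusted p = 0.00404, edgeR; 1 of 10 pericyte markers, summed level 2323 to 9042 against 2771 to 9751 CPM), 3 of 10 astrocyte markers (summed level 1480 to 7274 against 3163 to 19671 CPM), 2 of 8 neuronal markers (236 to 878 against 454 to 1277 CPM) and 1 of 8 oligodendrocyte markers (15.5 to 156 against 33.6 to 189 CPM), with 0, 0 and 4 markers of these lists at a median of 0 in libraries titled high. Rgs5 went against its list, in which 7 of 10 markers were above 0, with a median of 0.11. In the astrocyte, neuronal and oligodendrocyte lists 0 markers were above 0. Arterial markers were above 0 in 10 of 10, with a median of 0.53 (summed level 340 to 837 against 336 to 538 CPM). Venous markers were so in 9 of 9, with a median of 0.56 (806 to 2267 against 581 to 1813 CPM). In these 2 lists 0 markers passed. The rRNA-like gene Gm26917 was higher in libraries titled high by 1.5 (adjusted p = 4.4e-11, edgeR), while the rRNA-like share had medians of 19.0% and 18.6%. The part of these Rgs5, astrocyte, neuronal, oligodendrocyte, arterial, venous and rRNA-like differences in the result was not tested.

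Among the strains, S1pr1 (adjusted p = 0.0115) and Edn1 (adjusted p = 0.0209) differed in edgeR's quasi-likelihood F test, and the other 7 members did not pass. This makes 2 of 9 members, against 2.68% of all 29120 genes and 12.2% of those with a mean of at least 50 CPM. The smallest adjusted p among the remaining members was 0.192, for Klf2.

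Edn1 was lowest in WSB/EiJ. The 2 female libraries of this strain had 26.8 and 32.0 CPM and the 4 male libraries 27.4, 45.4, 48.4 and 60.3 CPM, while the libraries of all other strains ran from 33.1 through a median of 87.1 to 191 CPM. Of the 6 WSB/EiJ libraries, 3 lay below every other library. The strain mean was 40.1 ± 13.5 CPM (SD, n = 6), a log2 difference of -1.19 from the mean of the other strains (SE 0.28, adjusted p = 0.0089, edgeR). Next came DBA/2J at 61.9 ± 21 (SD, n = 5) and NOD/ShiLtJ at 81.5 ± 27.4 CPM (SD, n = 6), and the highest strain was 129S1/SvImJ at 117 ± 45.9 CPM (SD, n = 9). In male libraries alone, where WSB/EiJ has 4, the F test of Edn1 had an adjusted p of 0.257 (edgeR), and without WSB/EiJ replicate 2 it had one of 0.043. WSB/EiJ also had the highest median sum of 10 pericyte markers, 9053 CPM, against 2483 (CAST/EiJ) to 6396 CPM (NOD/ShiLtJ). Its mean log2(CPM + 1) of 16 endothelial markers was the lowest, 8.71 against 9.15 (129S1/SvImJ) to 9.37 (C57BL/6J). Their median sum, 16319 CPM, was not (14702 CPM in 129S1/SvImJ). The part of these marker differences in the Edn1 result was not tested.

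S1pr1 was lowest in 129S1/SvImJ, at 218 ± 108 CPM (SD, n = 9), a log2 difference of -0.80 from the mean of the other strains (SE 0.19, adjusted p = 0.0158, edgeR). Its 6 female libraries had 80.3, 119, 158, 186, 195 and 312.5 CPM, and its 3 male libraries 170.3, 346 and 396 CPM. The other strains ran from 164 through a median of 408 to 674 CPM, and 3 of the 9 libraries, all female, lay below all of them. WSB/EiJ had the highest mean, 528 ± 162 CPM (SD, n = 6), a difference of 0.69 (SE 0.20, adjusted p = 0.0512, edgeR) that did not pass. The strain next above 129S1/SvImJ was DBA/2J at 258 ± 54.7 CPM (SD, n = 5), and the remaining strain means lay between 373 ± 114 (A/J; SD, n = 5) and 402 ± 144 CPM (CAST/EiJ; SD, n = 6). The F test of S1pr1 had an adjusted p of 0.259 in male libraries alone and 0.104 in libraries titled high alone, of 0.00167 with sex, region and title word as covariates, and of 0.00279 without WSB/EiJ replicate 2 (edgeR).

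For each strain against the mean of the others, these were the 2 calls made among the members. Over all genes the share called was 1.46% for 129S1/SvImJ, 0.254% for A/J, 0.529% for C57BL/6J, 1.35% for CAST/EiJ, 0.192% for DBA/2J, 0.185% for NOD/ShiLtJ and 2.41% for WSB/EiJ. Piezo1 was at 124 ± 46.2 CPM (SD, n = 6) in WSB/EiJ, where its highest library had 204 and its lowest 79.2 CPM, and at 239 ± 47.3 CPM (SD, n = 6) in C57BL/6J. Its F test gave an adjusted p of 0.352 over all libraries and 0.0206 in male libraries alone (edgeR), where it was the 1 member called. DESeq2 called it over all libraries as well (adjusted p = 0.0257) and made 3 calls among the members. Nos3 was highest in C57BL/6J, at 506 ± 112 CPM (SD, n = 6), and lowest in DBA/2J, at 285 ± 33.7 CPM (SD, n = 5), with an adjusted p of 0.136 for C57BL/6J against the others (edgeR).

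Klf2 ran from 191 ± 124 CPM in DBA/2J (SD, n = 5) to 464 ± 327 CPM in A/J (SD, n = 5), whose mean contains the highest library of all, at 967 CPM. With sex, region and title word as covariates its F test passed (adjusted p = 0.0203, edgeR), and it also passed without DBA/2J replicate 1 (0.0426) and with no filter on low counts (0.0346). Klf6 ran from 94.0 ± 51.7 CPM in DBA/2J (SD, n = 5) to 173 ± 55 CPM in WSB/EiJ (SD, n = 6), and Klf4 from 197 ± 64.0 CPM in NOD/ShiLtJ (SD, n = 6) to 273 ± 81.9 CPM in 129S1/SvImJ (SD, n = 9). Ece1 ran from 625.2 ± 93 CPM in CAST/EiJ (SD, n = 6) to 818 ± 95.5 CPM in C57BL/6J (SD, n = 6). The place of WSB/EiJ in this order rests on replicate 2 at 1227 CPM, with a mean of 643 ± 293 CPM (SD, n = 6) with it and of 526.4 ± 69.7 CPM (SD, n = 5), the lowest of the strains, without it. Map3k3 ran from 105 ± 24.0 CPM in DBA/2J (SD, n = 5) to 167 ± 94.2 CPM in WSB/EiJ (SD, n = 6), which includes replicate 2 at 352 CPM and had 129.8 ± 28.6 CPM (SD, n = 5) without it. With strains ordered by mean log2(CPM + 1), 54 steps between neighbouring strains were compared by two-sided exact permutation tests. The step of Ece1 from NOD/ShiLtJ down to A/J had the lowest unadjusted exact p, 0.0216, with an adjusted p of 0.985 over the 54 exact tests. Thus 0 steps between neighbours passed, which does not show that those strains are alike.

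Some related genes also varied among strains, where 2.68% of all genes and 12.2% of those with a mean of at least 50 CPM passed. Passing in edgeR's F test were 5 of 21 mechanosensors and junctional sensors, among them Kdr (adjusted p = 0.00154), Piezo2 (0.00217) and Plxnd1 (0.00333). The call of Piezo2 is of a low gene, at 4.28 ± 12.5 CPM (SD, n = 43) with counts from 0 to 3493. Of the 12 flow-repressed genes tested 3 passed: Ctgf (6.6e-04), Cyr61 (0.00661) and Angpt2 (0.0131). Of the 15 nitric oxide genes 3 passed, Gucy1a1 (0.00483), Nostrin (0.00539) and Slc7a1 (0.012). In the cascade list 1 of 11 passed, Heg1 (0.00945), a receptor that binds the CCM complex, and 2 of 18 flow-induced genes did, Dll4 (1.3e-04) and Thbd (0.0326). Of the 10 sphingosine 1-phosphate genes tested 1 passed, Plpp3 (0.0466), and of the 20 immediate early genes 1, Dusp1 (0.00797). None of the 6 endothelin genes and 13 other KLF genes tested passed. Of the pericyte markers 6 of 10 and of the endothelial markers 5 of 16 also differed among strains, and their part in the strain differences of the members was not tested.

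Klf4 was the 1 member that differed between the sexes. Female libraries had 152 to 539 CPM of Klf4 with a median of 338, and male libraries 84.4 to 311 CPM with a median of 178. Of the 16 female libraries 10 lay above every male library, and 5 male libraries lay below every female one. The means of 328 ± 106 (SD, n = 16) and 193 ± 59.7 CPM (SD, n = 27) gave a log2 fold change of 0.76 (SE 0.14, adjusted p = 2.0e-04, edgeR), or 1.70-fold. In 12 sets of libraries titled high from the same strain and region, Klf4 was higher in the female library in 11, by 0.69 ± 0.75 on the log2 scale (SD, n = 12; two-sided exact permutation p = 0.0117, unadjusted), and in 10 of 11 without WSB/EiJ replicate 2 (p = 0.0225, unadjusted). Adjusted over the 27 exact tests on matched sets, the p of the 12 sets was 0.0571 and did not pass.

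One call among 9 members stands beside 2.85% of all genes and 15.7% of those with a mean of at least 50 CPM. Of all genes called, 745 were higher and 85 lower in female libraries, so that Klf4 went the way of most calls. When the rRNA-like share was added to the fit, Klf4 had a log2 fold change of 0.84 with a standard error of 0.30 (adjusted p = 0.214, edgeR), and 0 members passed. Since this share does not overlap between the sexes, sex and share cannot be told apart. In the 5 female libraries with a share above 5% Klf4 was at 285 ± 93.5 CPM (SD, n = 5), and in the 11 below 5% at 347 ± 110 CPM (SD, n = 11). The same 5 libraries, which come from NOD/ShiLtJ, CAST/EiJ and A/J, had 619 ± 212 CPM of Klf2 (SD, n = 5) against 236 ± 114 CPM in the 11 others (SD, n = 11), a split in which strain and rRNA-like share cannot be told apart.

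No other member passed between the sexes. S1pr1 had 309 ± 155 CPM in female (SD, n = 16) and 383 ± 146 CPM in male libraries (SD, n = 27), giving a log2 fold change of -0.31 (SE 0.18, adjusted p = 0.455, edgeR), and was lower in the female library in 10 of 12 matched sets (two-sided exact permutation p = 0.0186, unadjusted), or 9 of 11 without WSB/EiJ replicate 2 (p = 0.0371, unadjusted). Adjusted over the 27 exact tests on matched sets, the p of the 12 sets was 0.0716 and did not pass. The fitted values of the other members lay between -0.17 for Piezo1 and 0.17 for Edn1, around a median over all genes of -0.12. As given above, 2.85% of all genes and 15.7% of those with a mean of at least 50 CPM passed. Of the nitric oxide genes 3 of 15 passed as higher in female EC, Hsp90ab1 (0.68, adjusted p = 7.1e-07), Hsp90aa1 (0.88, 6.7e-05) and Nostrin (0.69, 0.0163), in edgeR's test. Palmd (0.62, adjusted p = 0.00462) was the 1 of 18 flow-induced genes that passed, and Atf3 (1.94, 0.0146) and Jun (0.80, 0.0173) were 2 of 20 immediate early genes. Between the sexes 2 of 10 astrocyte markers were lower (summed level 1099 to 4750 in female, 1480 to 19671 CPM in male libraries) and 2 of 8 choroid plexus and 2 of 16 endothelial markers higher in female EC. Of the 16 endothelial markers only 7 had fitted values above 0, with a median of -0.04. The part of these marker differences in the Klf4 difference was not tested.

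**Figure D3:**
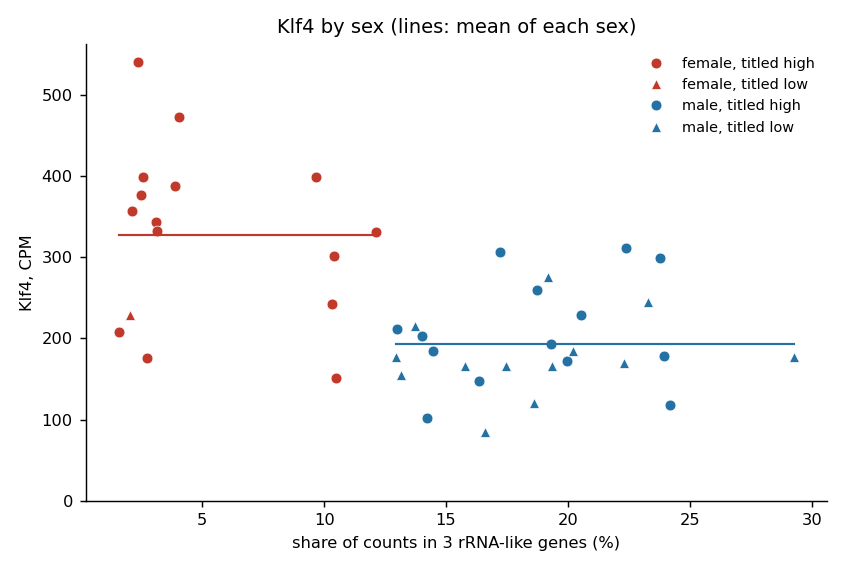
Klf4 in CPM (vertical axis) against the percentage of counts in 3 rRNA-like genes (horizontal axis) in 43 libraries, with sex as colour, title word as marker shape and a line at the mean of each sex. Female libraries (mean 328 CPM) lie at shares up to 12.1% and male libraries (mean 193 CPM) at 13% and above.

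No member was called between cortex and hippocampus by edgeR's or DESeq2's test (0 of 9, against 0.0755% of all genes), and 2 members had an unadjusted p under 0.05. Klf2 had a median of 218.5 CPM in cortex (64.9 to 611) and 352 CPM in hippocampus (133 to 967), giving a log2 fold change of 0.43 (SE 0.21, adjusted p = 0.669, edgeR). Klf4 had 193 CPM (84.4 to 388) and 243 CPM (118 to 539), giving a log2 fold change of 0.35 (SE 0.17, adjusted p = 0.669, edgeR). In 19 sets of libraries that share strain, sex, title word and title number, Klf2 was higher in hippocampus in 12 (exact permutation p = 0.0303) and Klf4 in 13 (p = 0.0541), both unadjusted. Adjusted over the 27 exact tests on matched sets, p was 0.102 for Klf2 and 0.146 for Klf4. The groups overlapped in both genes. Without the set of WSB/EiJ replicate 2, Klf2 was higher in hippocampus in 11 of 18 sets (exact permutation p = 0.0606) and Klf4 in 12 (p = 0.0688). Without this library the log2 fold changes were 0.38 for Klf2 and 0.40 for Klf4 (adjusted p = 0.688 each, edgeR). S1pr1 (0.01 ± 0.18, log2 fold change ± standard error), Ece1 (-0.02 ± 0.11) and Klf6 (0.03 ± 0.18) were closest to 0. None of the genes in the pathway lists passed between regions, and of the marker lists 1 gene did, the astrocyte marker Gfap (1.61 higher in hippocampus, adjusted p = 0.0229, edgeR). Gfap went against its list, in which 1 of 10 markers was above 0, with a median of -0.60.

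Wild-derived and long-inbred strains gave 0 calls among the members by edgeR and by DESeq2 (against 0.749% of all genes), with 3 members at an unadjusted p under 0.05. S1pr1 came nearest, with 465 ± 160 CPM in wild-derived (SD, n = 12) and 313 ± 127 CPM in long-inbred EC (SD, n = 31), giving a log2 fold change of 0.57 (SE 0.18, adjusted p = 0.173, edgeR). By p, Piezo1 followed with -0.38 (SE 0.16, adjusted p = 0.526) and then Klf6 with 0.42 (SE 0.19, adjusted p = 0.618), in edgeR's test. The median over all genes was -0.38. Edn1, at -0.42 (SE 0.23), was far apart in the 2 wild-derived strains, with 101 ± 42.4 CPM in CAST/EiJ (SD, n = 6) against 40.1 ± 13.5 CPM in WSB/EiJ (SD, n = 6), and without CAST/EiJ its log2 fold change was -1.24 (adjusted p = 0.0215, edgeR). Of the 12 flow-repressed genes tested 2 passed as higher in wild-derived EC, Angpt2 (1.91, adjusted p = 0.00339), a ligand that loosens vessels, and Ctgf (1.9, 0.00471), as did Dll4 (0.86, 0.00886) among flow-induced and Slc7a1 (0.62, 0.00886) among nitric oxide genes, in edgeR's test.

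Whether 1 difference depends on another was tested as an interaction. The region effect was not called as differing between the sexes in any member (0 of 9, against 0.00343% of all genes, edgeR), with Klf2 alone at an unadjusted p under 0.05 (0.88, SE 0.42). For Klf2 this interaction was 0.73 without WSB/EiJ replicate 2, a female cortex library (adjusted p = 1, edgeR). It did not pass between wild-derived and long-inbred strains either (0 of 9, against 0% of all genes, edgeR), where Map3k3 had the smallest p (-0.96, SE 0.33, adjusted p = 1). Without WSB/EiJ replicate 2, at 352 CPM the highest WSB/EiJ library for Map3k3, the value was -0.61 (adjusted p = 1, edgeR). The difference between title words in male mice was not called as differing between cortex and hippocampus (0 of 9, against 0% of all genes, edgeR, and 0 at an unadjusted p under 0.05), and for Klf2 this interaction was -0.06 (SE 0.37).

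**Figure D4:**
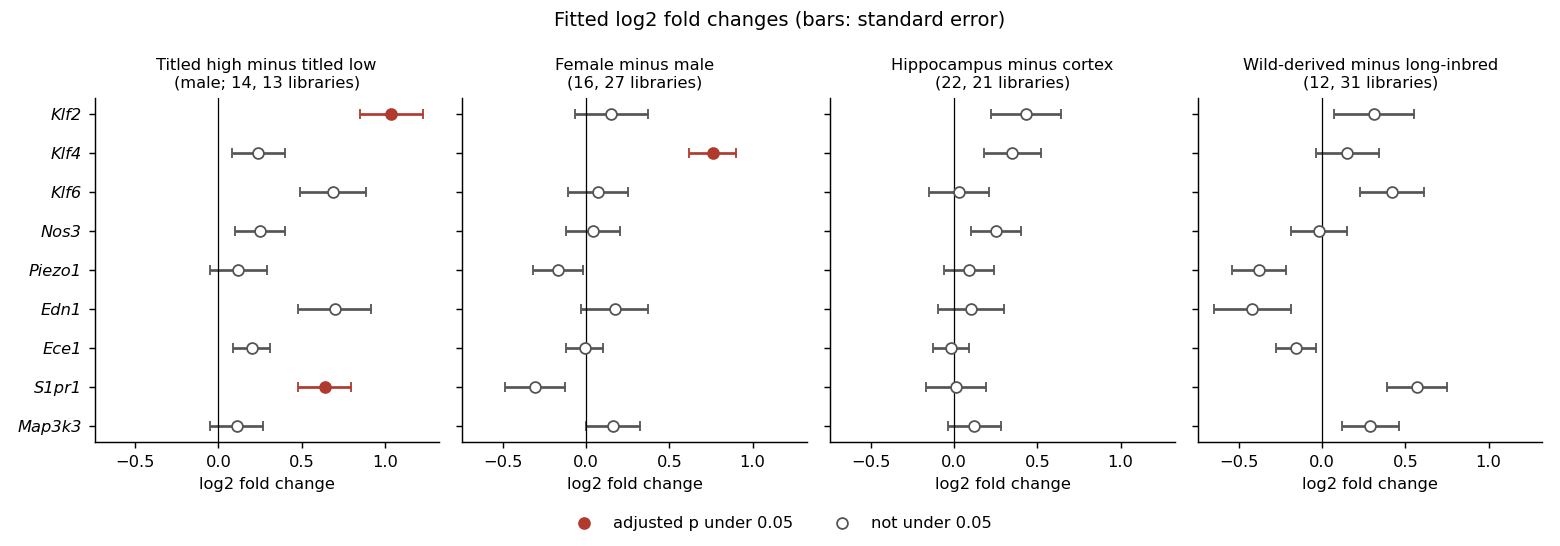
Fitted log2 fold change (horizontal axis; bars, standard error) of the 9 members in 4 comparisons, with filled points for an adjusted p under 0.05. Klf2 and S1pr1 are filled between title words in male libraries, Klf4 between the sexes, and no member between regions or between wild-derived and long-inbred strains.

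Some members varied together over the 43 libraries. Of 36 pairs, Klf2 and S1pr1 had the highest correlation of log2(CPM + 1), with Pearson's r = 0.65 (permutation p = 1.0e-05, the smallest that 100000 permutations can give; adjusted 3.6e-04) and Spearman's rho = 0.70 (p = 1.0e-05, adjusted 2.4e-04). The value was r = 0.64 in female and 0.73 in male libraries, 0.75 in male libraries titled high, 0.44 in those titled low, and 0.66 without the 2 libraries farthest from the median. Klf2 and Klf6 followed with r = 0.61 (permutation p = 3.0e-05, adjusted 5.4e-04) and rho = 0.65 (p = 2.0e-05, adjusted 2.4e-04), with 0.57 in female, 0.67 in male, 0.39 in male libraries titled high, 0.62 in those titled low and 0.62 without the 2 farthest. For Klf6 and S1pr1 r was 0.54 (permutation p = 2.0e-04, adjusted 0.0024) and rho 0.59 (p = 2.0e-05, adjusted 2.4e-04), with 0.60 in female, 0.65 in male and 0.55 without the 2 farthest. Klf2, Klf6 and S1pr1 thus varied together, within each sex as well.

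A second set of related levels held Ece1. Its r was 0.52 with Piezo1 (permutation p = 4.6e-04, adjusted 0.00331) and rho 0.56 (p = 1.2e-04, adjusted 0.00108), but r was 0.27 in female and 0.73 in male libraries and 0.42 without the 2 farthest. Without WSB/EiJ replicate 2 it was 0.70 over 42 libraries and 0.66 in the 15 female ones. With Nos3 r was 0.52 (permutation p = 4.2e-04, adjusted 0.00331) and rho 0.52 (p = 4.6e-04, adjusted 0.00331), with 0.61 in female and 0.38 in male libraries and 0.47 without the 2 farthest. For this pair r was only 0.12 in male libraries titled high and 0.49 in those titled low. Klf2 and Klf4, which are close relatives and share inducers, had r = 0.28 (permutation p = 0.069, adjusted 0.191) and rho = 0.27 (p = 0.0813, adjusted 0.183), with 0.38 without the 2 farthest. Klf2 and Nos3 had r = 0.42 (permutation p = 0.00402, adjusted 0.0241) and rho = 0.46 (p = 0.002, adjusted 0.012), but r was -0.14 in male libraries titled low. Klf2 and Edn1 were positively related too, with r = 0.40 (permutation p = 0.00851, adjusted 0.0383) and rho = 0.43 (p = 0.00423, adjusted 0.0218). For this pair r was 0.44 in female and 0.37 in male libraries, but -0.07 in male libraries titled low.

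Klf2 also followed the immediate early genes. Over 43 libraries r was 0.75 against their mean log2(CPM + 1) (permutation p = 1.0e-05, adjusted 9.0e-05 over 36 correlations of members with list means) and rho 0.77 (p = 1.0e-05, adjusted 1.2e-04). It was 0.76 in female and 0.76 in male libraries, 0.73 in male libraries titled high, 0.48 in those titled low and 0.74 without the 2 farthest. Against the endothelial mean, r was highest for Edn1, at 0.68 (permutation p = 1.0e-05, adjusted 9.0e-05) with rho = 0.75 (p = 1.0e-05, adjusted 1.2e-04), 0.63 in female and 0.71 in male libraries and 0.72 without the 2 farthest. This rank rests on WSB/EiJ replicate 2. Without that library r was highest for Ece1, at 0.77 (0.63 with it), and 0.68 for Edn1. Klf2 had r = 0.50 with the endothelial mean (permutation p = 7.6e-04, adjusted 0.00249) and rho = 0.60 (p = 8.0e-05, adjusted 3.2e-04), with 0.77 in female but 0.29 in male libraries, 0.10 in male libraries titled high, -0.27 in those titled low and 0.57 without the 2 farthest.

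**Figure D5:**
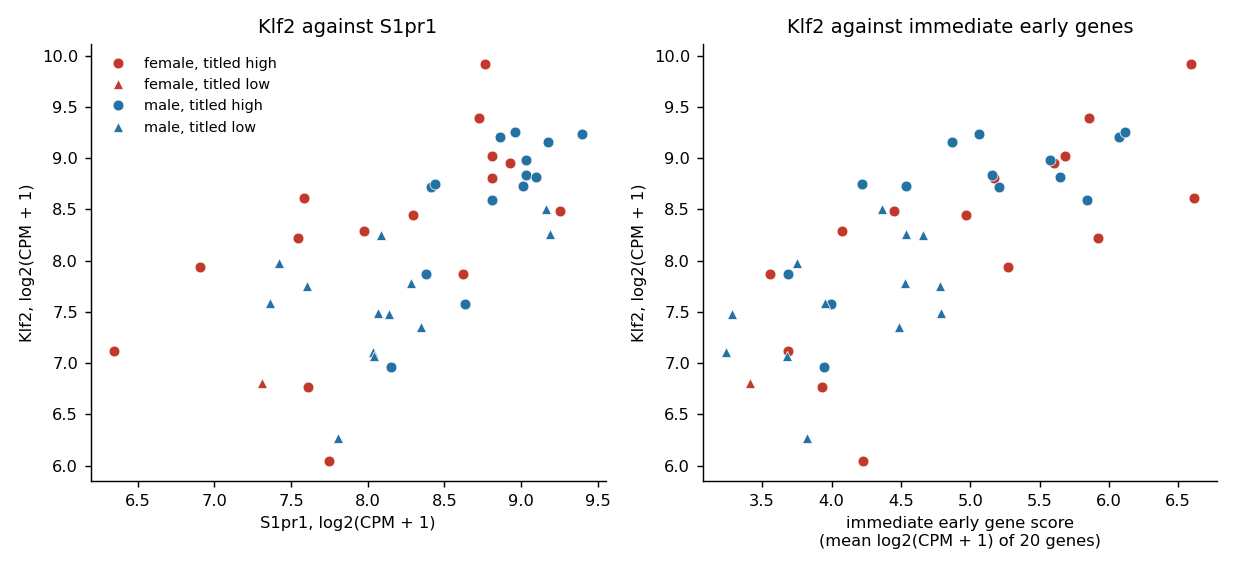
Klf2 as log2(CPM + 1) (vertical axes) against S1pr1 and against the mean of 20 immediate early genes (horizontal axes, same scale) in 43 libraries, with sex as colour and title word as marker shape. Klf2 is higher where S1pr1 is (r = 0.65) and where the immediate early genes are (r = 0.75).

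The genes whose levels were most like each member were sought among 8679 genes with a mean of at least 10 CPM, over the 43 libraries. For Klf2 these were Rhob (r = 0.82), Dusp1 (0.81) and Dusp6 (0.79), and for S1pr1 Slc2a1 (0.82), the glucose transporter of brain EC, Slc7a5 (0.79) and Robo4 (0.76). Nos3 was most like Irgm2 (0.80), Jup (0.77) and Anapc1 (0.73), and Edn1 most like Psma6 (0.80), Itm2a (0.74) and Hprt (0.69). Ece1 was most like Vcl, Bcam and Cdh5 (0.70 each) and Piezo1 most like Nup160 (0.69), Hspg2 (0.67) and Myo1d (0.64). Klf4 was most like Ddx3x (0.77), Tsc22d1 (0.74) and Hnrnpk (0.73), Map3k3 most like Bcar1 (0.69), Dnajc16 (0.66) and Hnrnpul1 (0.61), and Klf6 most like St8sia4 (0.67), Polr2c (0.61) and Klf2 (0.61). These values are descriptive, share libraries, depth and scaling, and were picked as the highest of many.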

How the data were processed

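RNA of sorted EC was sequenced after rRNA depletion. Alignment to mm10 by the authors used HISAT2 2.1.0. They handled alignments with SAMtools 1.9, counted reads per gene with featureCounts of Subread 1.4.4, per the labels and methods, and deposited raw counts without normalization for 54532 genes. No 2 libraries were near-identical (highest correlation 0.9739).

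Library sizes were normalized with the TMM method of edgeR 4.0.16 under R 4.3.3. The filter asked for 0.5 CPM or more in 1 or more libraries, which 29120 genes passed over all libraries. Groups were compared with edgeR's quasi-likelihood test (trended dispersion, bias-adjusted deviances), two-sided, with Benjamini-Hochberg adjustment over all genes at 0.05. In fits with covariates, genes were dropped if a fitted count exceeded the largest observed one by over 5 times. DESeq2 1.42.0 was an alternative, as were other filters, covariates, subsets and each strain left out. The test was tried on simulated counts of independent libraries, where false calls were mostly of genes under 10 CPM, so shares called over all genes are uncertain. The means of the members all lie above 50 CPM. Since the simulation held no shared mice and no differences in cell content, it cannot vouch for the calls of the members. Correlations and exact tests used Python 3.11.15 and scipy 1.17.1 on log2(CPM + 1). Positions and lengths are those of GENCODE release M21. Group values are CPM with SD over libraries, which may come from the same mouse, so that p-values measure the spread between these libraries. Members and lists were chosen with earlier results of these data known. Genes named besides the members are those called in a list, up to 3 per direction by p, and the 3 most like each member.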

Additional observations from a re-analysis of the deposited data

Results flagged for a closer look

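In each of 63 groups of a member and a strain, the highest and the lowest library were compared with the rest by Dixon's criterion, which flags about 1 in 20 groups by chance, and 7 groups held a library that stood apart. Of these, 4 were of WSB/EiJ replicate 2, a female cortex library titled high: Klf2 was lowest there at 64.85 CPM (next 306.18), S1pr1 lowest at 213.99 CPM (next 516.32), Ece1 highest at 1227.31 CPM (next 622.54) and Map3k3 highest at 351.89 CPM (next 154.78). The other 3 were of Nos3, which was lowest in 129S1/SvImJ replicate 1 (female cortex, titled low) at 53.78 CPM (next 214.73), in A/J replicate 3 (male cortex, titled low) at 247.65 CPM (next 390.53) and in CAST/EiJ replicate 4 (male cortex, titled low) at 209.88 CPM (next 382.53). Leaving out WSB/EiJ replicate 2, an alternative chosen after seeing the data, left the number of members called at 2 among strains, 0 between regions, 1 between the sexes and 0 between wild-derived and long-inbred strains.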

How the results depend on the processing

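Klf2 between title words in male mice was called in 41 of 42 alternatives (log2 fold change 0.55 to 1.14), S1pr1 in 37 of 42 (0.42 to 0.82), Klf4 between the sexes in 15 of 16 (0.61 to 0.90), Edn1 among strains in 18 of 19 and S1pr1 in 17 of 19. The number of members called among strains was 4 with edgeR's default deviances, 3 with DESeq2 (Piezo1 added), 3 with no filter, with covariates or without DBA/2J replicate 1 (Klf2 added in each), 1 in male libraries and 1 in libraries titled high. Between title words it was 4 with DESeq2, with default deviances and without WSB/EiJ, 1 without A/J, C57BL/6J, CAST/EiJ or NOD/ShiLtJ, 0 with the immediate early gene mean as a covariate, and 2 to 3 with each male library left out. It was 0 between the sexes with the rRNA-like share as a covariate, and 1 between wild-derived and long-inbred strains with default deviances or without CAST/EiJ. The cause of these changes was not tested. DESeq2's size factors moved the median log2 fold change of all genes between the sexes from -0.116 to -0.237.

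Some fitted log2 fold changes that were not called changed sign. Between regions these were Klf6 (-0.02 without A/J and without WSB/EiJ, -0.03 in male libraries), Piezo1 (-0.02 without 129S1/SvImJ, -0.05 in male libraries), Edn1 (-0.02 in male libraries), Ece1 (0.01 without DBA/2J, 0.08 without WSB/EiJ, 0.03 without WSB/EiJ replicate 2) and S1pr1 (-0.01 with DESeq2 and with its size factors, -0.07 without 129S1/SvImJ, -0.04 without WSB/EiJ, -0.00 with strain, sex and title word as covariates, -0.19 in male libraries, -0.03 without WSB/EiJ replicate 2). Between title words it was Piezo1 (-0.23 with the endothelial mean as a covariate). Between the sexes these were Klf2 (-0.02 without A/J, -0.03 without DBA/2J, -0.22 in libraries titled high), Klf6 (-0.06 with DESeq2 and with its size factors, -0.04 without A/J and without NOD/ShiLtJ, -0.09 without DBA/2J, -0.24 titled high), Nos3 (-0.10 with DESeq2 and with its size factors, -0.01 with no filter and without C57BL/6J, CAST/EiJ or WSB/EiJ, -0.03 without DBA/2J, -0.08 without NOD/ShiLtJ, -0.02 titled high), Edn1 (-0.02 with strain and region as covariates, -0.11 titled high), Ece1 (0.15 without 129S1/SvImJ, 0.01 without C57BL/6J, 0.02 with strain and region or the rRNA-like share as covariates), S1pr1 (from -0.31 to 0.44 with the rRNA-like share) and Map3k3 (-0.01 without WSB/EiJ replicate 2). Between wild-derived and long-inbred strains these were Nos3 (0.11 without C57BL/6J, 0.09 without WSB/EiJ), Edn1 (from -0.42 to 0.07 without WSB/EiJ, while without CAST/EiJ it was called at -1.24) and Map3k3 (-0.02 without WSB/EiJ). Without WSB/EiJ replicate 2 the interactions of region with sex for Map3k3 (0.26) and of region with origin for S1pr1 (-0.11) changed sign.

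No paired analysis was possible between libraries of the same mouse because the titles do not name it. The exact tests on matched sets pair libraries by shared labels, not by animal, and treat sets as independent although sets of a strain may share mice. Fits without WSB/EiJ replicate 2, without single male libraries and with marker means as covariates, the matched sets and the correlations with list means were chosen after seeing the data. Male libraries were shallower than female ones, and differences of low genes are less certain there.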
